A study of Drosophila melanogaster and Drosophila simulans and Drosophila yakuba with 4 samples.

Results

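Small nucleolar RNA (snoRNA) genes were examined in white prepupae of D. melanogaster, and all genes whose symbol begins with snoRNA: were taken. There were 243 such genes among the 15492 genes listed. The study sequenced RNA of whole animals at the start of pupariation in 4 Drosophila species, and 1 library, that of D. melanogaster, was analysed here. The sources name no genotype, strain, treatment or sex, and the organism field of this sample names D. yakuba while its title names D. melanogaster. The title was followed, since 14872 of the 15492 identifiers are D. melanogaster genes. RNA was taken up in Trizol and made into Illumina libraries, and no source says whether poly(A) RNA was selected or short inserts were removed. The larval serum protein gene Lsp2 at an FPKM of 6146, the fat body gene Fbp1 at 6499 and the late puff gene Eig71Ea at 5787 stood high among stage markers, and of the adult yolk protein genes Yp1 stood at 0.0527 and Yp2 at 0. FPKM divides the fragments of a gene by its transcript length in kilobases and by the depth of the library. A single library has no spread between replicates, so differences between groups of genes are described and none was tested.

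snoRNAs are short RNAs of the nucleolus that guide chemical changes of ribosomal RNA by base pairing with it. Those with box C and box D motifs guide the addition of methyl groups to ribose and are bound by fibrillarin. Those with H and ACA boxes guide the conversion of uridine to pseudouridine and are bound by dyskerin. Most fly snoRNAs lie in introns of a host gene and are trimmed out of the intron after splicing, and a few, such as U3, have promoters of their own. In the fly, symbols that begin with Me name guides of methylation and those that begin with Psi guides of pseudouridine, followed by the target RNA and position, and a final letter marks copies with the same target. No sequence of a snoRNA is shown, since the files used here give their names and positions alone.

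A larger share of snoRNA genes was listed at 0, and a smaller share detected, than among all genes. Of the 243 members 94 (38.7%) were at an FPKM of exactly 0, against 10.9% of all genes listed. At an FPKM of 1 or more, taken as detected, stood 143 members (58.8%), against 74.5% of all genes. At 100 or more stood 40 members (16.5%), against 9.28% of all genes. The snoRNA shares exceeded those of all genes at both ends of the scale. The snoRNA median FPKM of 7.18 lay next to that of all genes, 6.90. No member with status OK lay between 0 and 2.02, the value of snoRNA:Psi28S-2566, and the next were snoRNA:CG32479-a at 2.95 and snoRNA:CG32479-b at 3.31.

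The FPKM of a snoRNA gene rested on very few reads. The bounds that Cufflinks gives beside each FPKM were taken to lie 2 standard errors away and were solved for the reads behind the value. Of the 141 members with status OK and an FPKM above 0, 139 gave whole reads within 0.05, which is how the read numbers are given here. Over all genes under 300 reads this share was 69.4%. The 227 members with status OK held 752 reads, which is 0.00625% of the 12038283 reads implied for the library. Of these members 86 had 0 reads, 42 had 1 at most, 44 had 2 or 3, 34 had 4 to 9 and 21 had 10 or more. The median of the members with reads was 3 reads, against 184 over all genes with reads. The lower bound was at 0 for 96 of these 141 members and above 0 for 45. A detected snoRNA gene was therefore, in 86 of 141 cases, a gene with 3 reads or fewer.

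The value of a single read depended on the length of the gene. Cufflinks divides by an effective length, the number of positions at which a fragment of the usual size can start, and this becomes small for a gene shorter than a fragment. In members of 70 to 80 bases 1 read was worth a median FPKM of 57.2 (22 genes), in members within 5 bases of 140 it was 7.18 (55 genes). The extremes were 110.1 for Or-CD10, with 67 bases, and 0.623 for Tudor-SN-a, with 311 bases. Against locus length the FPKM of 1 read had a Spearman rho of -0.96 over 141 members, as a description of this library. Set on the scale of 637 longer genes of a single exon, these values correspond to effective lengths of 1.17 bases in the shorter band and 9.30 bases in the longer one. Of the 38 members with status OK at an FPKM of 100 or more, 15 had 3 reads or fewer and 12 had 10 or more.

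**Figure D1:**
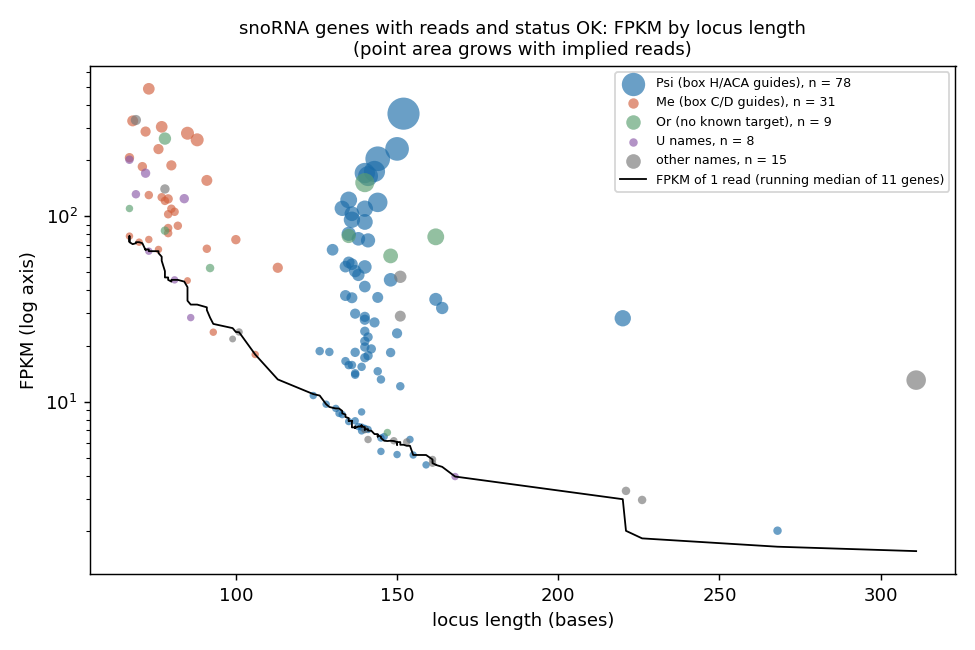
FPKM (log axis) against locus length in bases for the 141 snoRNA genes with reads and status OK, coloured by class, with the point area growing with the implied reads; the line is the running median of the FPKM of 1 read. The line falls from left to right, and the short Me genes reach FPKM values above 100 with small points, while Psi genes near 140 bases need large points to do so.

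For a gene listed at 0 the same arithmetic gives an upper limit. A count of 0 allows up to 3 reads, which was converted with the median value of 1 read in members within 5 bases of the same length. This could be done for 77 of the 86 members at 0 with status OK. The limit ran from an FPKM of 13.9 to 214.7 with a median of 89.4. It had a median of 21.5 in Psi genes and of 158.6 in Me genes. Both median limits lay above the median FPKM of members with reads and status OK in the same class, 20.5 in Psi genes and 109.8 in Me genes. Intervals and limits of this kind cover counting error only.

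A larger share of the box H/ACA guide genes than of the box C/D guide genes was detected, while among members with reads their FPKM values were lower. Over all members, zeros included, the median FPKM was 14.1 in the Psi class and 0 in the Me class. Of 106 Psi genes 27 (25.5%) were at 0 and 78 (73.6%) at an FPKM of 1 or more. Of 73 Me genes 38 (52.1%) were at 0 and 31 (42.5%) at 1 or more. These counts include 10 Me genes and 1 Psi gene with a status other than OK. Among genes with status OK, reads were found in 74.3% of the Psi class and 49.2% of the Me class. Among members with reads and status OK the median FPKM was 20.5 in the Psi class and 109.8 in the Me class, a log2 ratio of Me over Psi of 2.42. By reads the order turned around, with medians of 3 and 2 and a log2 ratio of -0.58. The median locus was 140 bases long in Psi genes and 79 in Me genes. Over all members with status OK, zeros included, Psi genes held 525 reads, or 35.1 per kb of locus, and Me genes 92.5, or 18.05 per kb. In Me genes 1 read was worth a median FPKM of 52.9, against 7.17 in Psi genes. The order of the classes among members with reads therefore depended on the scale. With zeros included Me genes were lower by median FPKM and by total reads per kb. Of the 525 Psi reads, 172 were those of 8 genes in the host kra and 61 those of snoRNA:Psi18S-531. In hosts from an FPKM of 10 to 100 Me genes were higher by reads per kb, at 19.7 against 6.98. In hosts under 10 and in both bands from 100 upward Psi genes were higher.

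**Figure D2:**
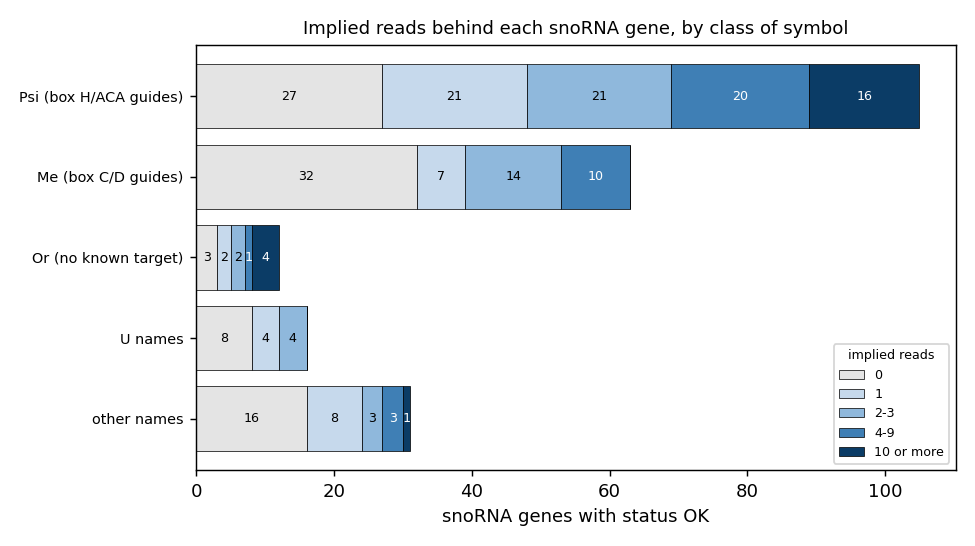
Number of snoRNA genes with status OK by the reads implied for each (shades from 0 to 10 or more), one bar per class of symbol. In the Psi class 16 of 105 genes had 10 or more reads, in the Me class 0 of 63, and in the U names the highest was 3.

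The remaining classes were smaller. Among 15 genes of the Or class, orphans with no known target, 5 were at 0 and 9 at an FPKM of 1 or more, with 69.05 reads in all. Its H/ACA members (Or-aca) had 37 reads in 4 genes with status OK and its C/D members (Or-CD) 32.05 in 8. Of 33 genes with other names, many of them called after their host, 16 were at 0 and 17 at 1 or more. The 16 genes with U names, kept from the vertebrate snoRNAs they resemble, held 14 reads in all, and 8 of them were at 0.
U3, which is needed for the first cuts of the ribosomal RNA precursor and is among the most abundant snoRNAs of animal cells, was represented by 1 read. snoRNA:U3:9B (chromosome X of dm3, 10242203 to 10242370) had an FPKM of 3.95 from 1 read, with bounds of 0 and 11.8. snoRNA:U3:54Aa and snoRNA:U3:54Ab, both on 2R and both 173 bases long, were at 0, and no limit could be set at their length. U14, which takes part in the same cuts, has 2 copies in introns of Uhg2 on 2L. snoRNA:U14:30Eb (9893946 to 9894026) had an FPKM of 45.4 from 1 read, with an upper bound of 136.2, and snoRNA:U14:30Ea (9894205 to 9894285) was at 0, where a count of 0 allows up to 140.4. The 2 copies of U14 therefore cannot be told apart.

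The members with the highest FPKM and those with the most reads were mostly different genes. The 10 highest by FPKM and the 10 highest by reads shared 1 gene. At the head by FPKM stood snoRNA:CG43051-a at 1486 and snoRNA:660 at 538.6, both with status LOWDATA and a lower bound of 0. They were followed by snoRNA:Me28S-A2113 in RpL30 at 486.7 (bounds 89.3 and 884.0), which rests on 6 reads. snoRNA:CD-24 in RpS3A, on chromosome 4 from 86203 to 86271, had 330.3 from 4 reads, with a lower bound of 0. snoRNA:Me18S-G1620 in Uhg2 had 326.7 from 5 reads and snoRNA:Me28S-A982b in Uhg4 303.6 from 6. Next were snoRNA:Me18S-C1831 at 286.2, snoRNA:Me28S-G2703c at 280.3 and snoRNA:Or-CD4 at 262.3, from 4, 8 and 7 reads. The bounds of these genes overlap one another, so their order by FPKM is not resolved.
The gene that led by reads was snoRNA:Psi18S-531, on chromosome X of dm3 from 657116 to 657267, with 61 reads and an FPKM of 357.5 (265.9 to 449.0). It lies within RpL22 and also within the noncoding gene lncRNA:CR42491, which stood at 316.3. Behind it came snoRNA:Psi28S-3571 with 35 reads, snoRNA:Psi28S-3385a with 32 and snoRNA:Psi28S-3186 with 25, all in the gene kra. snoRNA:Psi18S-920 in RpL10Ab had 22 reads, snoRNA:Tudor-SN-a 21 and snoRNA:Or-CD2 in Uhg4 20.05. The case of snoRNA:Tudor-SN-a shows how far the scales differ, since its 21 reads gave an FPKM of 13.1 and the 6 reads of snoRNA:Me28S-A2113 one of 486.7.

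Nearly all snoRNA genes lay inside another gene, many of them inside a highly expressed one. The locus of 232 of the 243 members (95.5%) was contained in that of another gene, against 14.6% of all genes listed. For 108 members (44.4%) the host stood at an FPKM of 100 or more, against 1.36% of all genes. The 232 nested members shared 79 hosts, of which 37 were at 100 or more. The hosts had a median FPKM of 95.6, from 0.262 for CG31191 to 6055 for RpS29, where the median of all genes was 6.90. Where 7 members lay within more than 1 gene, the host with the highest FPKM was taken. In the newer dm6 annotation 196 members lay on the same strand as the host and touched none of its exons, 17 overlapped an exon on the same strand and 2 lay on the opposite strand. For 17 members, in 9 hosts, the host was not in the annotation or the name table, and it is called by its identifier.
Cytosolic ribosomal protein genes were the largest named group of hosts. They numbered 26, with 67 members and a median host FPKM of 2696, and ran from 167.1 for RpL4 to 6055 for RpS29. Of their members 49 (73.1%) were at an FPKM of 1 or more. The 7 Uhg genes, hosts whose spliced RNA encodes no known protein, held 47 members, of which 27 (57.4%) were at 1 or more. They were expressed at 10.2 (Uhg7) to 125.1 (Uhg2), with a median of 39.0. The 37 other named hosts had a median of 16.5 and held 101 members, of which 54 (53.5%) were at 1 or more. Of all nested members 136 (58.6%) were at 1 or more, and of the 11 others 7 (63.6%). The 95% Wilson intervals were 52.2% to 64.8% and 35.4% to 84.8%. They take each member as independent, though members share hosts and come from 1 library. The difference between these shares was not tested.

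Mean reads per snoRNA gene were highest in hosts at an FPKM of 1000 or more. The order of the lower bands, and in the Me class that of the highest band too, rested on single hosts. Reads were found in 62.1% of all members with status OK, against 89.3% of all genes with that status. By host level, reads were found in 12 of 29 such members in hosts under an FPKM of 10 and in 44 of 84 from 10 to 100. From 100 to 1000 they were found in 26 of 39 and at 1000 or more in 52 of 64. The mean reads per member in these bands were 1.07, 1.81, 3.10 and 6.52. In the Psi class reads were found in 8 of 16, 10 of 17, 18 of 27 and 38 of 41 members, with means of 0.813, 1.06, 3.96 and 9. In the Me class they were found in 0 of 6, 18 of 35, 4 of 7 and 9 of 14, with means of 0, 1.57, 1.5 and 1.93. Spearman's rho between the reads of a member and the FPKM of its host was 0.58 over 101 Psi genes and 0.33 over 62 Me genes, and the difference was not tested.
In the lowest band 15 of the 31 reads were those of snoRNA:Or-aca4, which lies on the strand opposite to CG10936, and without it the mean was 0.571 over 28 members. Without it and snoRNA:Psi28S-2622, also on the opposite strand, the mean was 0.481 over 27, and without the members in dom it was 1.79 over 14. Without snoRNA:Psi18S-531 the band from 100 to 1000 had a mean of 1.58 in place of 3.10, below the 1.81 of the band under it. The 8 members in kra held 172 of the 369 Psi reads in the highest band, and without them the mean of that band was 5.97 in place of 9, over 33 Psi genes, of which 90.9% had reads. Among Psi genes the band from 100 to 1000 had a mean of 1.77 without snoRNA:Psi18S-531 and of 8.60 without those in Arpc2, in place of 3.96. Under 10 the Psi mean was 1.75 without dom, and from 10 to 100 it was 0.692 without CG10576 and 1.6 without Hrb98DE. Among Me genes it was 1.04 without Uhg5 from 10 to 100, and 0.300 without Uhg2 from 100 to 1000. At 1000 or more, 8 of the 27 Me reads were those of snoRNA:Me28S-G3253 in RpS9. The order of the Me bands from 10 upward is therefore not resolved. With each host counted once, as the mean reads of its members, rho was 0.52 over 75 hosts. These are descriptions of 1 library, in which members of a host share its RNA. A read within an intron can come from the snoRNA or from host RNA before splicing, and which of the 2 gave these reads was not tested.

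**Figure D3:**
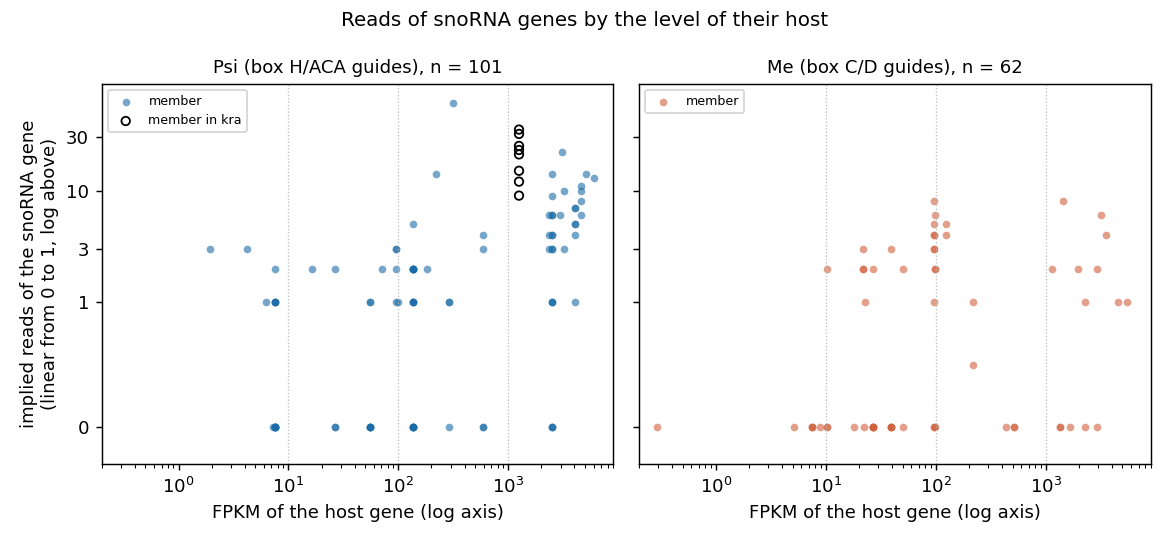
Reads implied for each nested snoRNA gene with status OK (linear from 0 to 1, log above) against the FPKM of its host (log axis), for 101 Psi genes and 62 Me genes; dotted lines mark 10, 100 and 1000, and open circles the 8 members in kra. Psi genes with 10 or more reads lie in hosts above 100, and no Me gene exceeds 8 reads at any level of the host.

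Members of the same host were listed at different FPKM values, and differences between copies with the same target were not tested. There were 23 hosts with 3 or more members, and they held 164 of them. The host kra, a regulator of translation at an FPKM of 1252, carried 8 Psi genes on 3R, and all 8 were detected. snoRNA:Psi28S-3385a stood at 230.8, snoRNA:Psi28S-3571 at 204.2, snoRNA:Psi28S-3186 at 174.5 and snoRNA:Psi28S-3385b at 171.0. Then came snoRNA:Psi28S-3091a at 122.4, snoRNA:Psi28S-2442b at 118.8, snoRNA:Psi28S-3091b at 110.3 and snoRNA:Psi28S-2442a at 53.3. The bounds of the highest, 149.2 and 312.4, lie above the upper bound of the lowest, 88.8, while neighbours in this order overlap. Every one of the 8 stood below the host.
RpS5a, at 2473, held 14 Psi genes with 52 reads. Its 4 copies of snoRNA:Psi28S-1192 had 35 of them, at FPKM values from 53.5 to 109.9, while the 6 copies of snoRNA:Psi28S-1135 ran from 0 to 26.8 with 11 reads and the 3 copies of snoRNA:Psi18S-1854 from 0 to 7.29 with 2. The remaining member was snoRNA:Psi28S-2876 at 27.7. Differences among members of this host were not tested, and lettered copies may share reads. RpS16, at 4586, had 5 members, all of them detected, from 55.2 for snoRNA:Psi28S-1175a to 103.2 for snoRNA:Psi28S-1175c. RpS7, at 4055, had 6 of 7 detected, from 8.81 to 50.6, all Psi genes. The 5 copies of snoRNA:Psi18S-1377 in it held 24 reads. RpL28, at 1676, had 1 of 5, the orphan snoRNA:Or-CD12 at 83.6 from 2 reads. RpS4, at 2356, had 3 of 3 with 13 reads, RpL17, at 588.8, 2 of 4 with 7, and RpL3, at 219.3, 3 of 4 with 15.5.

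The share of members at 0 was 65.7% in hosts under an FPKM of 10, 47.2% from 10 to 100, 31.7% from 100 to 1000 and 17.9% above. Arpc2, a subunit of the Arp2/3 complex that nucleates actin, stood at 135.1 and carried 17 Psi genes, the most of any host. They were 10 copies of snoRNA:Psi18S-525 and 7 of snoRNA:Psi18S-640 within the host on 2L, and 11 of the 17 were detected with 21 reads. The highest, snoRNA:Psi18S-525g, was at 37.4 (3.95 to 70.8) from 5 reads, and 6 were at 0. dom, an ATPase of chromatin remodelling, stood at 7.54 and held 15 members, of which 5 were detected with 6 reads. They were snoRNA:Psi18S-841a at 14.6, snoRNA:Psi28S-3316a at 8.65, snoRNA:Psi18S-841c at 8.52, snoRNA:Psi28S-3316b at 7.09 and snoRNA:Psi18S-1389a at 4.56, and the 3 Me genes of this host were at 0. In Sf3b3, a splicing factor subunit at 26.7, 2 of 9 were detected, and in Hrb98DE, an RNA-binding protein at 55.6, 2 of 7. In CG10576, at 95.6, all 5 were detected, from 6.96 to 140.3, with 12 reads. In FBgn0261619, at 286.5, 2 of 3 were detected from 1 read each, and all 4 members in FBgn0005630, at 52.9, were at 0.
The noncoding hosts also differed. Uhg1, at 39.0, held 16 members with 12 reads, and 10 were at 0. The detected ones were snoRNA:Me18S-A28a at 206.95, snoRNA:U31:54Ed at 201.7, snoRNA:U27:54Eb at 170.7, snoRNA:U27:54Ea at 131.5, snoRNA:U76:54Eb at 64.8 and snoRNA:U29:54Eb at 28.4, each from 1 to 3 reads. Uhg5, at 97.2, had 8 of 11 detected with 35 reads, from 66.2 for snoRNA:Me18S-G1952 to 280.3 for snoRNA:Me28S-G2703c. Uhg4, at 98.2, had 6 of 7 detected with 42.05 reads, from 5.16 for snoRNA:Psi28S-2949 to 303.6 for snoRNA:Me28S-A982b. Uhg8, at 21.8, had 3 of 3, at 81.1 to 124.1, and Uhg3, at 22.2, had 0 of 3. Uhg2 had 3 of 4, and Uhg7, at 10.2, 1 of 3. Uhg5 and Uhg4 stood below Arpc2 in level and above it in reads per member.

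**Figure D4:**
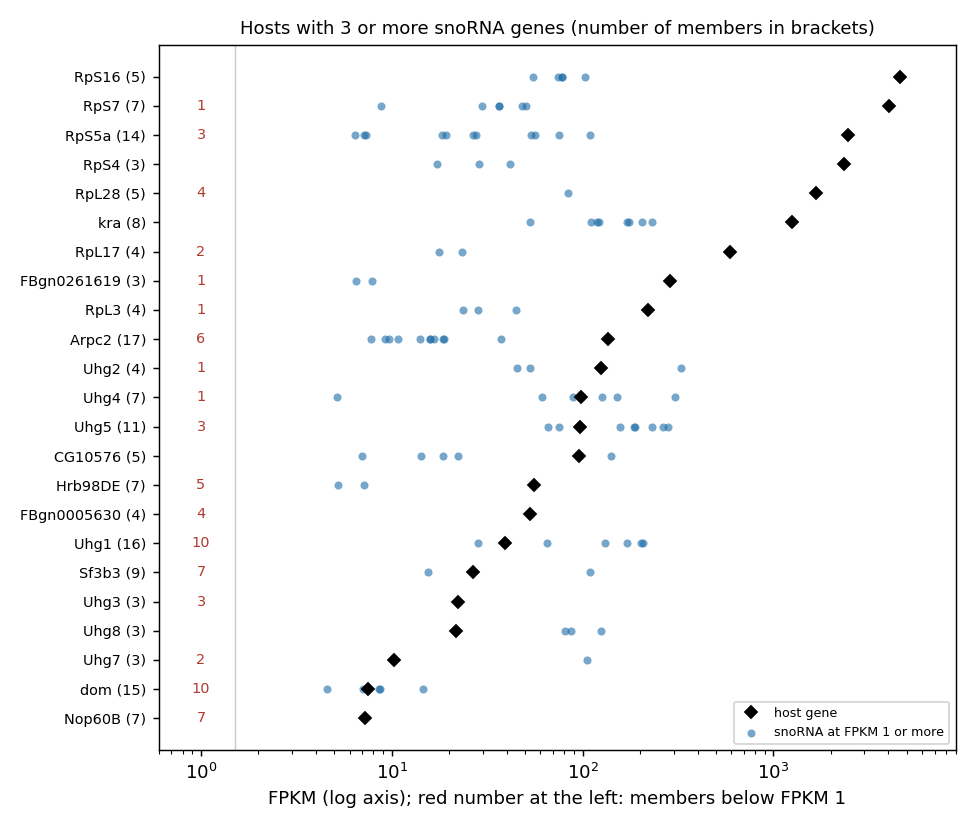
FPKM (log axis) of the 23 hosts with 3 or more snoRNA genes (diamonds, ordered by level) and of their members at an FPKM of 1 or more (points); the red number at the left counts the members below 1. In the ribosomal protein hosts, kra and Arpc2 all points lie left of the diamond, and in dom, Sf3b3, CG10576 and each Uhg host but Uhg3 at least 1 point lies to its right. For members of 70 to 80 bases 1 read was worth a median FPKM of 57.2, above the level of several of these hosts.

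In 34 of the 232 nested members the FPKM exceeded that of the host, 32 of them with status OK. The same share over the 2258 nested genes of the library was not computed. A single read can be enough for an FPKM above the host, since in members of 70 to 80 bases 1 read was worth a median FPKM of 57.2. snoRNA:U76:54Eb, with 73 bases, stood at 64.8 from 1 read, above its host Uhg1 at 39.0. An FPKM above the host is therefore no measure of more reads or more RNA than the host. The 5 largest ratios were in hosts at an FPKM of 0.376 to 71.8. snoRNA:83E4-5 stood at 7.07 from 1 read in CG42564 at 0.376, a ratio of 18.8, and its lower bound was 0. snoRNA:Or-aca4, an orphan on 2R from 13504261 to 13504422, stood at 77.5 (37.5 to 117.5) from 15 reads in CG10936 at 5.22, a ratio of 14.9. It lies on the strand opposite to CG10936, as does snoRNA:Psi28S-2622, at 19.7 from 3 reads, to stet at 1.92. For these 2 genes the gene around them is no host in the sense of a shared transcript. snoRNA:Me28S-A2634b had 105.7 from 2 reads in Uhg7, whose own value of 10.2 has bounds of 0 and 36.3, and snoRNA:660 had 538.6 in the actin gene Act57B at 71.8.
Of the 11 members outside any gene listed, 7 had reads, 31 in all. A cluster on 2R held 21 of them. Its members were snoRNA:Psi28S-1153 at 45.4 (15.1 to 75.7), snoRNA:2R:9445205 at 47.2 (11.5 to 82.8) and snoRNA:2R:9445410 at 28.9 (3.05 to 54.8), which lie next to one another between 9445044 and 9445560. snoRNA:Psi28S-3342 on X stood at 32.0 from 7 reads. The others were snoRNA:Psi18S-301 at 7.35, snoRNA:Psi18S-176 at 6.26 and U3:9B, from 1 read each, and snoRNA:U3:54Aa, snoRNA:U3:54Ab, snoRNA:185 and snoRNA:Me18S-A1806 were at 0.

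The share at 0 was higher among snoRNA genes with lettered copies than among the rest, a difference that was not tested. Names with a final letter formed 44 families of 2 to 11 genes with 134 members in all. Of these members 61 (45.5%) were at 0 and 70 (52.2%) at an FPKM of 1 or more. Of the 109 members with no lettered copy, 33 (30.3%) were at 0 and 73 (67.0%) at 1 or more. Reads per kb of locus were 21.8 in lettered families and 34.2 in the rest. The largest family was snoRNA:Psi18S-525, with 11 copies that held 17 reads, of which 7 copies had reads and 4 were at 0. snoRNA:Psi18S-525k, its copy outside Arpc2, lies in Msp300 and had an FPKM of 21.2 from 3 reads. No source says how reads that match several copies were assigned, so the values of single copies are uncertain. Whether shared reads lowered the values of copies was not tested.

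The status that Cufflinks gave was other than OK for 16 members (6.58%), against 0.587% of all genes, and was LOWDATA in each of the 16. They make up 16 of the 80 genes of the library with this status. In 14 of them the snoRNA overlapped an exon of its host, and 2 lay in introns. Of the 17 members that overlapped an exon 14 had the status, and of the 196 in introns on the same strand 2 had it. The others with an exon overlap and an FPKM near 0 were snoRNA:Me28S-C2645a and snoRNA:Me28S-C2645c in Uhg3, snoRNA:Me28S-U2134a in RpL13A, snoRNA:Me18S-A425 in RpL3, snoRNA:Me18S-A1374 in Dys and snoRNA:Or-aca2 in RpS6, beside those in Nop60B. The 2 in introns were snoRNA:Me28S-G2703b in Uhg5 and snoRNA:Psi28S-2626 in RpS7. By value 8 of the 16 were at exactly 0, 6 lay between 9.92e-35 and 0.00288 with upper bounds of up to 116.1, and 2 were the highest members of all. The host with most of them was Nop60B, the fly dyskerin, whose table entry also bears the name Uhg6. It stood at 7.27 and held 7 members, all at 0, and the 6 box C/D genes among them (snoRNA:Me28S-G1083a to G1083d, snoRNA:Or-CD9a and snoRNA:Or-CD9b) had the status LOWDATA. Cufflinks sets this status for loci it holds too complex or too shallowly sequenced, and these values are left out of all counts of reads.

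Transcripts of protein genes of the snoRNA particles were also described. Of 18 such genes sought 16 were found by name, while hoip and Mpp10 matched no named gene of the library. All 16 stood at an FPKM of 1 or more, against 74.5% of all genes. Their median was 13.0, against 6.90 over all genes. Among the genes of box C/D proteins Nop56 stood at 74.1 (70.4 to 77.8), fibrillarin (Fib) at 18.7 (16.3 to 21.0) and nop5 at 15.4. Among the genes of H/ACA proteins Nop10 stood at 217.6 (198.2 to 236.9) and NHP2 at 111.3 (102.8 to 119.8), while Gar1 was at 6.74 and Nop60B at 7.27. The assembly factors pont and rept, ATPases of the same complex, were at 24.7 and 11.6, Nopp140 at 8.13, spag at 14.1 and Nufip at 5.68. U3-55K, which encodes a protein of the U3 particle, stood at 3.65 from 82 reads, where the 3 U3 genes had 1 read together. 3 of these protein genes are hosts themselves: Nop60B, Fib, in which snoRNA:229 was at 0, and nop5, within which and within x16 snoRNA:nop5-x16-a stood at 23.8 from 1 read.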

How the data were processed

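RNA-seq of whole D. melanogaster white prepupae, 1 library, was used. The values are FPKM per gene as deposited by the authors, who ran Cufflinks on trimmed single-end reads that TopHat had placed on the genome; each FPKM comes with its 2 confidence bounds and a status. The processing notes also name Bowtie, SAMtools and build dm3. Not given in the sources used here: tool versions, read length, strand and the gene models. Rows of a gene were summed, and loci, which start at 0 in the table, were written from 1, on dm3. Names came from a gene table that held 14872 of 15492 identifiers and 257 snoRNA symbols, 243 of them in the library. Hosts were genes whose locus contained the snoRNA locus in the table's own coordinates. Strand and exons came from the newer dm6 annotation of Ensembl release 115, by gene identifier. Reads were solved from the upper bound for rows with status OK, and the arithmetic and the search for hosts were first tried and tested on simulated data. The simulated bounds were built with the same formula, so this trial could not show whether the bounds of Cufflinks follow it. No model of counts was fitted. Effective lengths were scaled by a slope over single-exon genes of 1000 to 5000 bases with at least 20 reads. The members and lists were chosen with earlier results of these data known. Named are the 10 highest members by FPKM, the 5 lowest above 0 with status OK, U3 and U14, members with a status other than OK (all 16 here, where the rule took 10), hosts with 3 or more members and the 5 highest ratios to the host; genes that lead by reads and members outside any host were named after their values were seen. Alternatives were FPKM minimums of 0.1 and 5, status OK, scaRNA genes added, the largest row, overlap in place of containment, hosts on the same strand, the smallest host, host minimums of 50 or the top decile of all genes, and, chosen after seeing the data, 4 or more reads, reads in place of FPKM, members with no lettered copy, and each host left out of its band. The tables of the other 3 species, whose identifiers are not paired with names, were not used. Versions were matplotlib 3.10.9, scipy 1.17.1, pandas 2.3.3, numpy 2.4.6 and Python 3.11.15.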

Additional observations from a re-analysis of the deposited data

How the results depend on the processing

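All 27 comparisons with the first set of alternatives stayed within 1.5 times the value, or within the interval of the share. Overlap in place of containment, an FPKM minimum of 0.1 and the largest row removed or added nothing, so these are no test. Hosts on the same strand left 213 nested members, since the 17 with a host not in the annotation were also dropped. The share of members not nested at an FPKM of 1 or more was then 50%. Its interval, 35.4% to 84.8%, is wide, so staying within it says little. With 4 or more reads as the limit, chosen after seeing the data like the following, 55 of the 227 members with status OK were detected, in place of 143 of all 243. The share of all genes at this limit was not computed. Of the 109 members with no lettered copy 41 lay in a host at an FPKM of 100 or more, against 108 of all 243 members and 1.36% of all genes. Of the nested ones among them 66% were at 1 or more, against 58.6% of all nested members and 74.5% of all genes. Among members with reads and status OK, the log2 ratio of the medians of Me over Psi genes was 2.42 by FPKM. It was -0.58 by reads and 0.28 by reads per kb of locus. With zeros included Me genes were lower, with a median FPKM of 0 against 14.1 and 18.05 against 35.1 reads per kb in total. In hosts from an FPKM of 10 to 100 alone, Me genes were higher by reads per kb, at 19.7 against 6.98. The order of the classes thus depends on the scale, on whether zeros are counted and on the hosts included. Of the 141 members with reads 86 had 3 or fewer, and why the counts are low was not tested. No paired analysis was possible because only 1 library was analysed, so no library could be left out either.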

Other observations

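Other short noncoding RNA genes of the same library were also sparse. All 292 genes of transfer RNAs were listed at 0. Of 31 genes of small nuclear RNAs, which are parts of the spliceosome, 20 (64.5%) were at 0 and 11 at an FPKM of 1 or more, with 133 reads in all. Of 15 scaRNA genes, relatives of snoRNAs that guide changes of small nuclear RNAs, 7 were at 0 and 8 at 1 or more, with 40 reads. Per kb of locus the reads were 27.6 in snoRNA genes, 26.4 in small nuclear RNA genes and 18.3 in scaRNA genes, against 130.9 over all genes, whose loci include introns.
By chromosome, 44 of 89 snoRNA genes on 2R were at 0, 8 of 30 on X, 13 of 43 on 3R, 16 of 43 on 3L and 13 of 36 on 2L. Over all genes of the library the share at 0 was 10.9%, and shares over all genes of each chromosome were not computed. On 2R the hosts Uhg1 and dom each held 10 of the members at 0 and Nop60B held 7. Members of a host share its RNA, and a difference between chromosomes was not tested.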
